A study of Drosophila melanogaster with 2 samples.

Results

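The 44 protein-coding genes of the fly genome whose symbol begins with eIF were examined for binding of Jim, out of 13945 protein-coding genes on the 6 chromosome arms analysed. Every gene with such a symbol in the Ensembl annotation of dm6 was taken. A gene was counted as bound when the summit of a region, its point of highest signal, lay within 500 bp of an annotated transcript start. By this rule 6 of the 44 genes were bound in the list thresholded on the irreproducible discovery rate (IDR list). This is 13.6%, beside 6.96% of all protein-coding genes. The bound genes were eIF2gamma, eIF3c, eIF3h, eIF4EHP, eIF4H1 and eIF6. The strongest of them, eIF6, was also near the top of both replicate lists, while eIF2gamma, eIF3c and eIF4H1 were inside the same cut in replicate 1 and not in replicate 3.

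The regions come from chromatin immunoprecipitation followed by sequencing (ChIP-seq), with an antibody to GFP, in whole wandering larvae of the third instar, strain jim-GFP, of mixed sex. These animals stably express the zinc finger factor Jim with GFP fused to its C terminus. There was 1 group of 2 biological replicates, numbered 1 and 3, with library size ranges of 175 to 275 bp and 200 to 325 bp, and there was no second genotype, treatment or stage. Age was given as unknown, the signal is an average over all tissues of the animal, and the read depth of the libraries is unknown. The control libraries behind the authors' lists were not analysed here, and the labelled stage cannot be checked from region lists.

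Translation initiation factors bring the initiator tRNA, the capped mRNA and the ribosomal subunits together before the first peptide bond is made. The eIF2 trimer delivers the initiator tRNA and is recharged with GTP by eIF2B, eIF3 forms a scaffold on the small subunit, and the eIF4 group binds the cap and unwinds the leader. eIF1, eIF1A and eIF5 govern start codon selection, eIF5B promotes joining of the large subunit, and eIF6 keeps free large subunits from joining too early. These genes are used in nearly all tissues, apart from several paralogs known for the male germ line, such as eIF4E3 and eIF4G2.

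The share of eIF genes bound was 13.6% (6 of 44; exact Clopper-Pearson 95% interval 5.17% to 27.4%), beside 6.96% of all protein-coding genes (970 of 13945). The interval contains the share of all genes. It treats genes as units and covers counting error only. In the 1476 strongest regions of replicate 1, as many as the IDR list holds, 8 of 44 eIF genes were bound (18.2%) beside 7.15% of all genes. In the 1476 strongest of replicate 3, 4 were bound (9.09%) beside 6.53%. Only eIF3h, eIF4EHP and eIF6 were bound in both replicates at this cut, which is 6.82% of the members beside 3.9% of all genes. Replicate 1 alone added eIF1, eIF2Bdelta, eIF2gamma, eIF3c and eIF4H1, which is 11.4% of the members beside 3.25% of all genes. Replicate 3 alone added eIF4E1, which is 2.27% beside 2.63%.

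**Figure D1:**
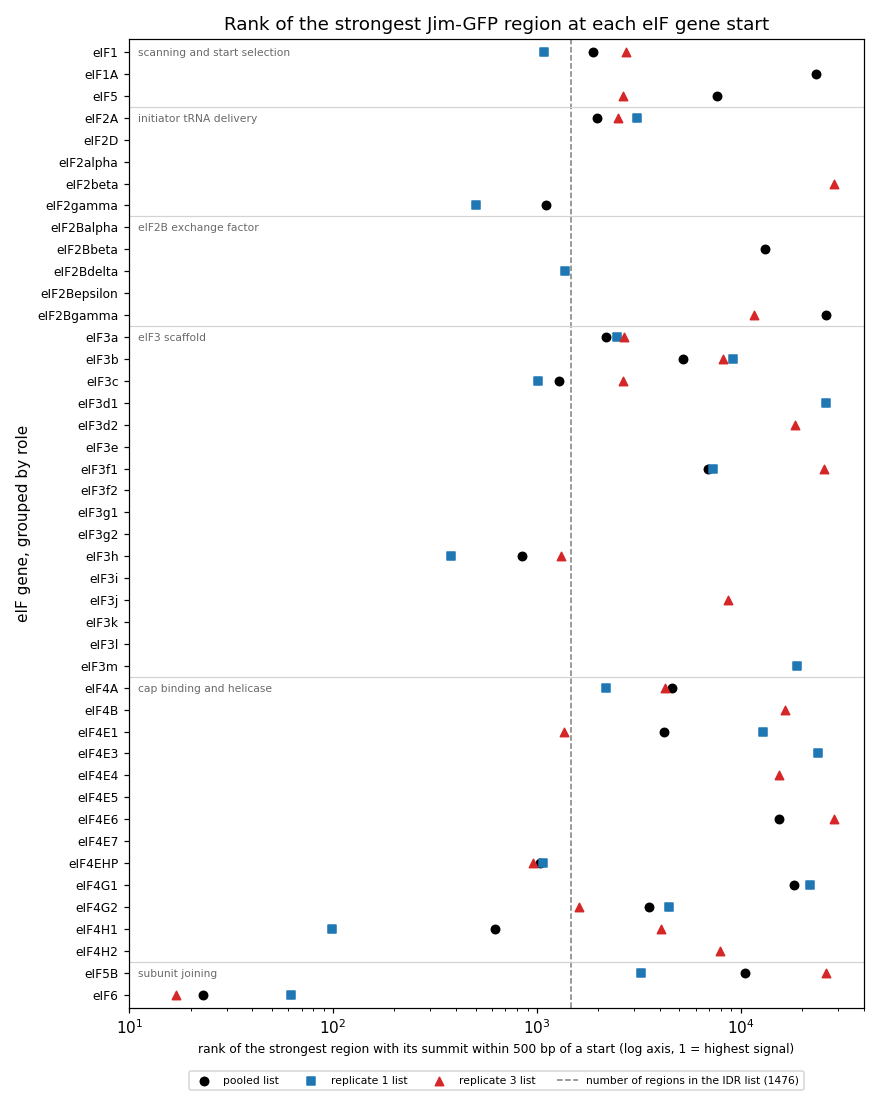
Rank of the strongest region with its summit within 500 bp of a start, for each of the 44 eIF genes (rows, grouped by role), in the pooled, replicate 1 and replicate 3 lists, on a log axis where 1 is the highest signal. The dashed line marks 1476 regions, the size of the IDR list. A gene without a point of a given kind had no region at a start in that list, which was so in all 3 lists for 13 genes, and eIF6 has the highest-ranked region in each of the 3 lists, at ranks 17 to 62.

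eIF6, the factor that holds large ribosomal subunits apart from small ones and is needed to make them, carried the strongest region of the family. Its region (chr2R:23850332-23850457, gene FBgn0034915 on the minus strand) had a deposited signal of 265.3 and ranked 23 in the pooled list. It ranked 62 with a signal of 100.2 in replicate 1, and 17 with a signal of 157.5 in replicate 3. Both replicates thus placed it far inside the cut of 1476, and their summits lay 7 and 5 bp from the pooled one. By its strongest region eIF6 was in place 11 among the 970 genes with an IDR summit at a start. The summit lay 96 bp upstream of the only annotated eIF6 start, inside an exon of the antisense RNA asRNA:CR45928, whose own start was 67 bp away. The other subunit joining factor, eIF5B, had a pooled region 99 bp upstream of a start at rank 10523. Its strongest region ranked 3253 in replicate 1 and 26327 in replicate 3, where the summit lay 132 bp downstream instead.

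Of the 5 members that deliver the initiator tRNA, eIF2gamma, the GTP- and tRNA-binding subunit of eIF2, was bound. Its region (chr3R:15263396-15263655, gene FBgn0263740, minus strand) had a pooled signal of 73.5 and rank 1112. In replicate 1 the region at this summit had a signal of 51.3 and rank 504. Replicate 3 had no region there among its 30000, and its nearest summit was 14720 bp away, so this member rests on a single replicate. The summit stood 68 bp upstream of a start that eIF2gamma shares with Su(var)3-9, a histone methyltransferase gene that begins at the same base. It stood 26 bp upstream of the start of Set, on the other strand, so the region cannot be assigned to one of these 3 genes. eIF2A, an alternative initiation factor, had a pooled region 53 bp from a start at rank 1979, with ranks of 3101 in replicate 1 and 2494 in replicate 3. eIF2beta had a region in replicate 3 alone, at rank 28653, and eIF2alpha and eIF2D had none in any list.

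The DNA at the summit of eIF2gamma holds copies of TATCGATA, the DNA replication-related element (DRE), which is found at many promoters of broadly used genes. The stretch shown for eIF2gamma (chr3R:15263459-15263551, minus strand, 93 bases) is the whole gap between its start and that of Set, with the element near both ends. The stretch shown for eIF3a (chr3R:4433896-4433964, minus strand, 69 bases) is the whole gap between its start and that of CG1074, and holds the element once. Both are read from the Release 6 sequence (dm6) 5′ to 3′ in the direction of the eIF gene, lie outside annotated exons, and have the element in capitals.
eIF2gamma: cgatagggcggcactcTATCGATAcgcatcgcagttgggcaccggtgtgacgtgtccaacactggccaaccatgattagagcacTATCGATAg
eIF3a: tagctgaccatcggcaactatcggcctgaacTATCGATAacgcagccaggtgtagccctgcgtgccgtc

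Among the 3 factors of scanning and start codon selection none was bound in the IDR list, and all 3 had a pooled region at a start. eIF1 came closest, with a summit 388 bp from its start at pooled rank 1878 and a signal of 58.3. That summit was 5 bp from the start of RpL28, a ribosomal protein gene on the other strand. In replicate 1 the strongest region of eIF1 ranked 1088 with its summit 349 bp away, inside the cut, and in replicate 3 it ranked 2728. eIF5, which triggers GTP hydrolysis by eIF2, had a summit 1 bp from a start that CG46312 shares, at pooled rank 7642. It ranked 2657 in replicate 3 and had no region in replicate 1. eIF1A had a single weak pooled region at rank 23420 and none in either replicate.

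The eIF2B exchange factor, which reloads eIF2 with GTP, had none of its 5 subunit genes bound. eIF2Bdelta had a region in replicate 1 18 bp from a start, at rank 1372, and none in the pooled list or in replicate 3. eIF2Bbeta and eIF2Bgamma had weak pooled regions at ranks 13182 and 26245. Each of them also lay near an IDR region outside the limit of 500 bp. The region upstream of eIF2Bbeta (chrX:2703830-2703993, signal 297.2) ranked 16 among pooled regions, 105 for replicate 1 and 5 for replicate 3. Its summit was 659 bp from the start of eIF2Bbeta and 60 bp from that of Ugalt, a nucleotide sugar transporter gene. The region near eIF2Bgamma (chr2R:15541270-15541529) had a signal of 88.2, close to the median of the IDR list (85.9), and rank 703. Its summit was 1261 bp from the eIF2Bgamma start. It was 35 bp from the start of Vha36-1, which encodes a proton pump subunit, and 37 bp from that of CG8187. eIF2Balpha and eIF2Bepsilon had no region at a start in any list.

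The eIF3 scaffold gave 2 bound genes of 16, which is 12.5% (1.55% to 38.3%) beside 6.96% of all genes. eIF3c, a core subunit, had a region across its start (chr2R:17665596-17665855, gene FBgn0034258, plus strand) with a pooled signal of 69.6 and rank 1282. It ranked 1009 with a signal of 40.2 in replicate 1, and 2634 with a signal of 27.5 in replicate 3, outside the cut. Its rank was the last of the bound members, and eIF1 at rank 1878 was the next member outside the IDR list. eIF3h, a peripheral subunit, had its strongest region inside the gene (chr2L:5052339-5052598, gene FBgn0022023, minus strand), in an intron 311 bp downstream of the nearest start. This region had a pooled signal of 81.6 at rank 847, a signal of 56.8 at rank 377 in replicate 1, and a signal of 36.6 at rank 1308 in replicate 3. A separate region stood 35 bp from the start, at pooled rank 7223, and the same pair of regions was present in both replicates. In replicate 1 the region at the start ranked 1466 and so was also inside the cut. Both regions also met the rule for senju, on the other strand, whose start was 374 bp from the summit of the stronger region and 28 bp from that of the weaker one.

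The remaining eIF3 genes had weaker regions or none. eIF3a, a core subunit, had a summit 35 bp from its own start and 35 bp from that of CG1074, at pooled rank 2183, with ranks of 2474 in replicate 1 and 2666 in replicate 3. Both replicates placed this region outside the cut of 1476, at similar ranks. eIF3b ranked 5201 and eIF3f1 6893 in the pooled list. eIF3d1, eIF3d2, eIF3j and eIF3m had a region in 1 replicate alone, at ranks from 8689 to 26047. eIF3e, eIF3f2, eIF3g1, eIF3g2, eIF3i, eIF3k and eIF3l had none in any list. In each of the paralog pairs of eIF3 at most 1 gene had a pooled region, which was eIF3f1 in the pair of eIF3f1 and eIF3f2.

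Of 13 genes of the cap binding and helicase group, eIF4EHP and eIF4H1 were bound, which is 15.4% (1.92% to 45.4%) beside 6.96% of all genes. eIF4EHP binds the cap without joining eIF4G and represses chosen mRNAs in the fly embryo. Its region (chr3R:24108842-24109101, gene FBgn0053100, minus strand) had its summit 12 bp upstream of the start, with a pooled signal of 75.2 at rank 1040. It ranked 1066 with a signal of 39.3 in replicate 1, and 957 with a signal of 41.8 in replicate 3. Both replicates placed this region inside the cut, at similar ranks. Its pooled summit also met the rule for CG18428, on the other strand, whose start was 364 bp away. A further region 355 bp upstream, 21 bp from the start of CG18428, ranked 4167 in the pooled list and 1098 in replicate 1. eIF4H1 is named for the mammalian protein that stimulates the helicase eIF4A. Its region (chrX:16448891-16449150, gene FBgn0262734, plus strand) lay in an intron, 131 bp upstream of an internal start, with a pooled signal of 92.3 at rank 625. In replicate 1 it ranked 99 with a signal of 89.9, and in replicate 3 it ranked 4055 with a signal of 23.6 and a summit 85 bp from the pooled one. The distance between the replicates was wide here, and only replicate 1 held this gene inside the cut.

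The stretches that hold the summits of eIF4EHP and eIF4H1 are shown because they lack the element seen at eIF2gamma and differ from each other. That of eIF4EHP (chr3R:24108961-24109072, minus strand, 112 bases) ends at the base before the start, is 50% G and C, and holds the initiator core TCAGT far from the start. That of eIF4H1 (chrX:16448921-16449121, plus strand, 201 bases) is intronic, is 55.2% G and C, and holds runs of TG, a run of T and 1 GAGAG on the other strand. Capitals mark the preset motifs found, on either strand, in dm6 sequence 5′ to 3′ along the gene.
eIF4EHP: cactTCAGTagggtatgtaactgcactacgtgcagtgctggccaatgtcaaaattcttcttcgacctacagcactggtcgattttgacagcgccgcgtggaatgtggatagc
eIF4H1: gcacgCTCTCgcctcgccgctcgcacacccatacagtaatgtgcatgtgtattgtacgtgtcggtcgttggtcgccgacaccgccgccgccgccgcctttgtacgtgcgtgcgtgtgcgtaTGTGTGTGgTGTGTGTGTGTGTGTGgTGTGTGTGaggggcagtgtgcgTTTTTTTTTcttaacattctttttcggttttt

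The core of the cap-binding complex was weaker. eIF4A, the helicase, had its strongest pooled region in an intron, 237 bp from a start, at rank 4600. This region ranked 2185 in replicate 1 and 29271 in replicate 3. The strongest eIF4A region of replicate 3, at rank 4230, was a different one, in the 5 prime UTR 112 bp from a start. eIF4E1, the main cap-binding protein, had a summit 16 bp from a start at pooled rank 4202. This region ranked 1365 in replicate 3, inside the cut. Replicate 1 had only a different region at a start of eIF4E1, at rank 12788. It lay 130 bp from another start and did not overlap the pooled region. eIF4G1, the scaffold of the complex and the only member on chromosome 4, ranked 18281 among pooled regions and 21845 in replicate 1, with no region in replicate 3. eIF4G2 had pooled rank 3551, and ranks of 1609 in replicate 3 and 4458 in replicate 1, with its summit 15 bp from a start that CG33111 shares. Of the other eIF4E paralogs, eIF4E6 had a pooled region at rank 15441, whose summit was 13 bp from the start of its neighbour CG1951. eIF4E3, eIF4E4, eIF4B and eIF4H2 had a region in 1 replicate alone, and eIF4E5 and eIF4E7 had none.

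**Figure D2:**
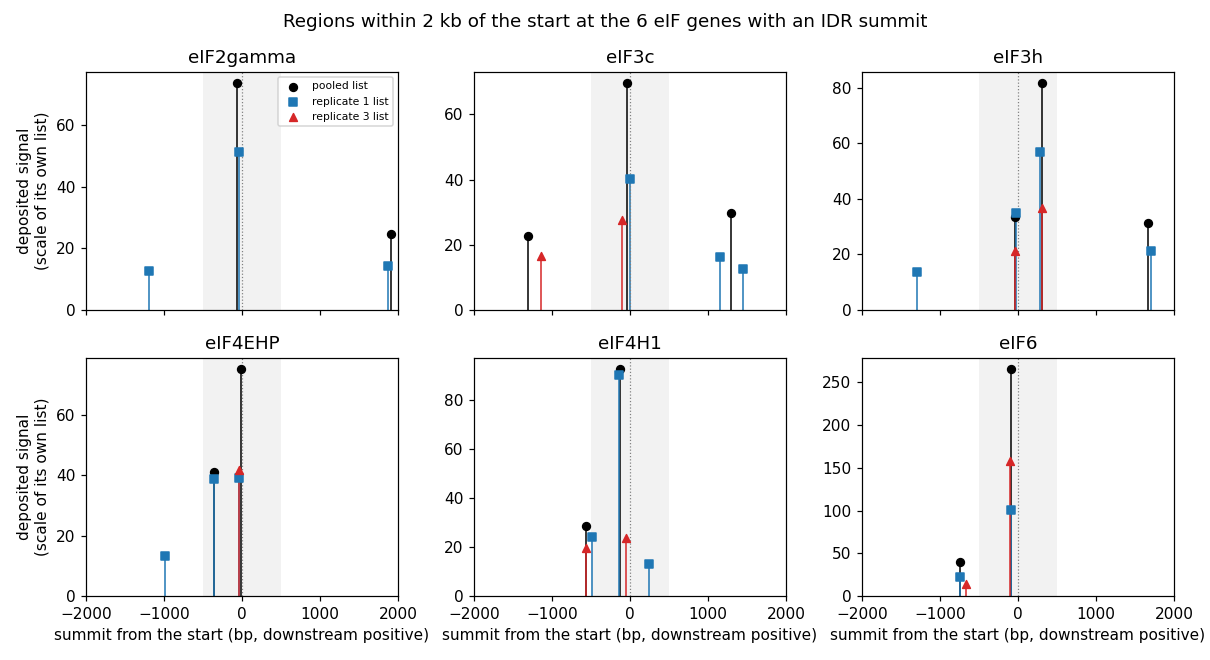
Deposited signal of every region with its summit within 2 kb of the start nearest to the IDR summit, for the 6 bound eIF genes, with distance in bp along the gene (downstream positive) and signal on the scale of each list, which differs between lists. The grey band marks 500 bp to each side, the region of replicate 3 is missing at eIF2gamma, and eIF3h shows a pair of regions inside the band in each list, the stronger one 280 to 311 bp inside the gene.

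Across the whole lists of 30000 regions, 21 eIF genes (47.7%) had a pooled region at a start, beside 42.8% of all protein-coding genes. In replicate 1 these were 20 (45.5%) beside 45.6%, and in replicate 3 23 (52.3%) beside 39.2%. In all 3 lists 14 members had a region (31.8%), beside 25.7% of all genes. In none of them 13 members had one (29.5%), beside 39.8%. The members with a pooled region had a median rank of 4202 and a median distance of 68 bp from summit to start. Over the 5974 genes with a pooled region these were 6409.5 and 109 bp. Of the 21 strongest member regions, 10 had their summit in a 5 prime UTR, 5 in an intron, 4 between genes, 1 in a 3 prime UTR and 1 in a noncoding exon. Features of any gene were counted here. The 5 prime UTR was that of RpL28 at eIF1 and of CG1951 at eIF4E6. The 3 prime UTR, at eIF2Bgamma, was that of Vha36-1.

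The share of eIF genes with a region was read at successive numbers of regions. With the 738 strongest pooled regions 2 members were bound (4.55%), beside 3.43% of all genes, and they were eIF4H1 and eIF6. With the 2952 strongest, eIF1, eIF2A and eIF3a were added, which made 9 members (20.5%) beside 12.6%. No test was made of these differences, and the counts at successive cuts are nested.

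**Figure D3:**
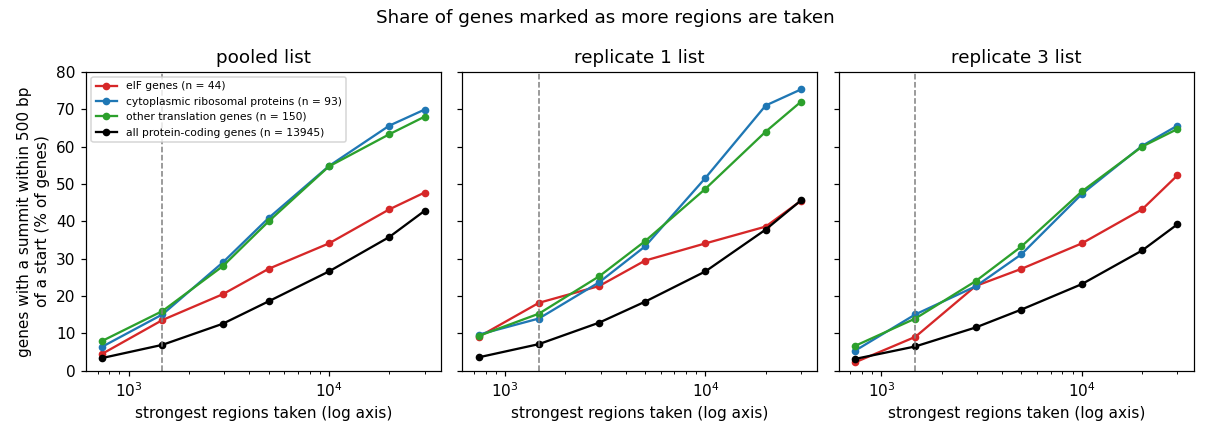
Percentage of genes with a summit within 500 bp of a start as more of the strongest regions are taken (log axis), in the pooled list and each replicate list, for eIF genes, cytoplasmic ribosomal protein genes, all other translation genes of the lists and all protein-coding genes. At 1476 regions (dashed line) the eIF genes stood at 13.6% in the pooled list, and at 30000 regions they stood at 47.7%, where the ribosomal protein genes stood at 69.9%.

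The count depended on how a gene was tied to a summit. With a limit of 250 bp, 5 members were bound beside 5.72% of all genes, and eIF3h dropped out. With 1000 bp, 7 were bound beside 8.44%, with eIF2Bbeta added. With only the outermost start of each gene, 5 were bound beside 5.79%. When the region itself had to cover a start, 3 were bound (eIF2gamma, eIF3c and eIF4EHP) beside 4.59%. When a summit counted only for the protein-coding gene with the nearest start, 5 were bound beside 5.48%, and eIF2gamma gave way to Set. Over gene bodies with 2 kb upstream, 9 were bound beside 10.8%, with eIF2Bbeta, eIF2Bgamma and eIF5B added. The region of eIF5B (signal 72.1, rank 1182) lay in an intron 17632 bp from its nearest start, and ranked 471 in replicate 3 and 12483 in replicate 1.

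The number of annotated starts varied among the members, and a gene with more starts has more chances to meet the rule. Of 15 eIF genes with 2 or more starts 4 were bound (26.7%), beside 13.4% of the 3699 such genes in the annotation. Of 29 eIF genes with 1 start 2 were bound (6.9%), beside 4.65%. Divergent promoters, with the start of another gene on the other strand within 500 bp upstream of any start, were present at 18 of 44 eIF genes (40.9%) and at 27.4% of all genes. Of the 6 bound members 4 had one, eIF2gamma, eIF3h, eIF4EHP and eIF4H1, beside 429 of all 970 bound genes (44.2%). The divergent start need not be the bound one. At eIF4H1 it was that of CG34015, within 500 bp of the summit at pooled rank 11913 and not of the IDR summit.

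Preset sequence motifs were counted from 250 bp before to 50 bp after the outermost start of each gene, on both strands. TATCGATA stood in 12 of 44 eIF promoters (27.3%), beside 9.36% of all 13945 promoters and 30.1% of 93 cytoplasmic ribosomal protein promoters. Of the bound members eIF2gamma, eIF3c and eIF6 held it. GAGAG, a repeat bound by GAGA factor, stood in 15.9% of eIF promoters and 29.7% of all. The initiator core TCAGT, counted anywhere in the window and not only at the start, stood in 22.7% beside 51.5%. AAAAAAAA stood in 6.82% beside 16%. TATAAA stood in 45.5% beside 45.8%, CACGTG in 6.82% beside 4.2%, and CACACACA in 0 of 44 beside 4.02%. The polypyrimidine initiator of translation genes was searched as TCTTT or CCTTT on the gene's strand within 10 bases of the start. It stood at 4 eIF genes (9.09%; eIF3d1, eIF3f1, eIF3i and eIF4A), beside 3.21% of all genes and 39.8% of ribosomal protein genes. None of these 4 was bound.

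**Figure D4:**
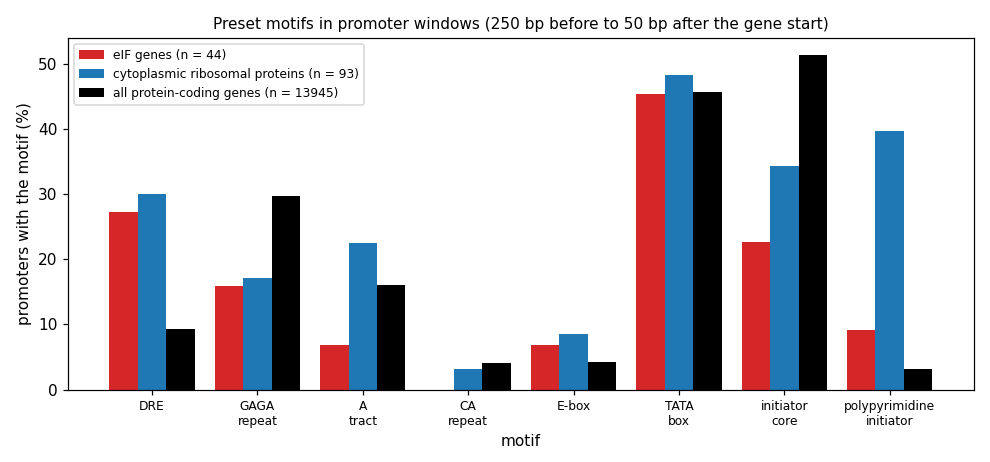
Percentage of promoter windows (250 bp before to 50 bp after the outermost start) that hold each of 8 preset motifs, for the 44 eIF genes, 93 cytoplasmic ribosomal protein genes and all 13945 protein-coding genes. The DRE stood in 27.3% of eIF promoters and 9.36% of all, and the letters of the initiator core, TCAGT, in 22.7% and 51.5%. TCAGT was counted anywhere in the window, on either strand, so its share is not a count of initiators at the start.

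The same element stood close to several member summits. Within 50 bp of the summit of the strongest pooled region, TATCGATA was present at 5 of 21 members (23.8%), namely eIF2A, eIF2Bbeta, eIF2gamma, eIF3a and eIF4E6. The share over the 4951 regions that are the strongest at the start of any gene was 3.33%, and over the 747 of them in the IDR list it was 2.81%. Only eIF2gamma of the 5 members was bound in the IDR list, so the 23.8% is to be set beside the 3.33%. GAGAG stood at 4 member summits (19%) beside 16.3%, and TCAGT at 4 beside 22.1%. AAAAAAAA and CACGTG stood at none of the 21, beside 7.19% and 1.41%. A match is a run of letters and was not tested as a binding site.

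Other genes of translation were compared by the same rule, in lists chosen with earlier results of these data known. The intervals of these lists cover counting error only and are no test. Of 150 genes in 5 lists 24 were bound in the IDR list (16%; 10.5% to 22.9%), beside 6.96% of all genes. Regulators of initiation had 8 of 23 (34.8%; 16.4% to 57.3%). They were led by larp, which encodes an RNA-binding protein (signal 170.0, rank 98), Thor, the eIF4E-binding repressor of cap-dependent translation (signal 145.4, rank 157), and pAbp, the poly(A)-binding protein (signal 115.5, rank 338), and these 3 were bound in both replicates at the cut. The others were RpS6 (rank 637), kra (679), mxt (686), an eIF4E-binding protein gene, Lk6 (920), a kinase of eIF4E, and S6k (1069), each bound in 1 replicate at the cut. RpS6 is also counted in the list of ribosomal proteins. With the outermost start of each gene alone, 5 of the 23 regulators were bound (21.7%), beside 5.79% of all genes.

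The other lists are set against the same 6.96% of all genes. Cytoplasmic ribosomal proteins had 14 of 93 bound (15.1%; 8.48% to 24%), with RpS29 (rank 125), RpL34b (218) and RpS4 (383) first. Elongation and release factors had 2 of 13 (15.4%; 1.92% to 45.4%), which were both release factors, eRF1 (rank 863, bound at the cut in replicate 1 alone) and eRF3 (rank 1422, in replicate 3 alone). Aminoacyl-tRNA ligases had 1 of 20, AspRS (rank 346), and mitochondrial initiation factors had 0 of 2. The AspRS summit was 466 bp from its start and nearer to the start of another protein-coding gene. With a limit of 250 bp the ligases had 0 of 20. In the whole pooled list the 150 genes reached 68% and the 44 eIF genes 47.7%, beside 42.8% of all genes.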

How the data were processed

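The authors deposited narrowPeak region lists on dm6 and dm3, and the 4 dm6 lists were used. The text notes deposited with the samples trace the pooled list and both replicate lists to alignments and a control, and the IDR list to those lists. The aligner, the caller and the threshold (not given in the sources used here) bear on which weak regions were listed. The deposited signal value of each region is on the scale of the authors' caller, which differs between lists (lowest 20.6 pooled, 10.9 in replicate 1, 12.4 in replicate 3), so lists were compared by rank at equal numbers of regions. The 1476 regions of the IDR list were the 1476 strongest of the pooled list. Read depth is unknown.

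Genes were those of Ensembl release 115 (BDGP 6.54), on the same assembly, and coordinates are printed from 1. The 1 region outside the 6 arms was left out. Every bound member is named with its values, members within the 2952 strongest pooled regions with their ranks, and the rest by role. Other bound translation genes are named up to 10 a list, except that of the ribosomal proteins the first 3 are named, and 1 is not reported here. Of the entries of the other lists, 3 matched no gene by symbol, namely Tor, mtIF2 and mtIF3. The 23 regulators of initiation therefore leave out Tor. The members and lists were chosen with earlier results of these data known. No test was made, since there is 1 group of 2 replicates, and intervals are exact Clopper-Pearson intervals at 95%. The join of summits to starts was tested on simulated data. Alternatives changed the distance, the starts, the rank cut and the replicate. Counts and intervals were computed with pandas 2.3.3, numpy 2.4.6 and scipy 1.17.1, and plots with matplotlib 3.10.9, all under Python 3.11.15.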

Additional observations from a re-analysis of the deposited data

How the results depend on the processing

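The number of bound eIF genes, 6, moved by over 1.5 times under 4 of 12 alternatives. It was 3 when a region had to cover a start, 2 with the stronger 738 regions, 21 with all pooled regions and 3 with a summit in both replicate lists. In the same order all protein-coding genes gave 640, 478, 5974 and 544 against 970, and they also gave 1760 with 2952 regions and 1501 over gene bodies with 2 kb upstream. The 24 other translation genes became 12 with 738 regions, 42 with 2952, 102 with all pooled regions and 10 in both replicate lists. Without replicate 3 the eIF count was 8, and without replicate 1 it was 4. The count for the nearest gene only was added after the data were seen. Of these alternatives, the limit of 1000 bp, the 2952 strongest and all pooled regions, and gene bodies only widened the rule or the list, so their keeping a bound gene shows nothing. eIF6 dropped out only when a region had to cover a start, and eIF4EHP only with 738 regions.

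With motifs counted within 50 bp of the summit instead of the promoter window, the number of members became 5 for TATCGATA, 4 for GAGAG, 0 for AAAAAAAA, 1 for CACACACA, 0 for CACGTG, 1 for TATAAA and 4 for TCAGT. These windows are shorter and cover 21 members. The polypyrimidine initiator has a fixed place at the start and was not counted at summits. With 44 genes the interval of a share is wide, and the read depth is unknown, so no limit from depth can be given.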
